A study of Homo sapiens with 8 samples.

Results

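The genes described here are 45 human genes listed for the making of ribosomes in the nucleolus. Most encode nucleolar assembly factors, and a few, such as IFRD2, PPRC1 and PRMT3, are also or better known for work elsewhere in the cell. They were listed by symbol, and all 45 were found among the 25906 genes of the expression table. All 45 also passed the filter on low values, at least 1 FPKM (fragments scaled to transcript length and to the library total) in at least 2 libraries, as did 12583 genes in all. The RNA came from the myeloma cell lines NCI-H929 and MM.1S, 72 hours after transduction with a lentiviral CTBP2 vector or with the empty vector. The groups were NCI-H929 with CTBP2, MM.1S with CTBP2, NCI-H929 with empty vector and MM.1S with empty vector, with 2 libraries each. All cells therefore carried a lentiviral vector, and no untransduced cells were analysed here. The libraries are described as biological duplicates of each transduction. CTBP2 is a transcriptional corepressor, and the study's title places it on the axis of MYC and IRF4, transcription factors on which myeloma cells depend.

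Ribosome assembly begins in the nucleolus, where RNA polymerase I transcribes the long precursor of the ribosomal RNAs. Small nucleolar RNPs of the box C/D and box H/ACA classes guide methylation and pseudouridylation of that precursor, while large sets of assembly factors fold, cut and package it into small and large subunits. Many of these genes are known targets of MYC, which binds the E-box CACGTG, and plasma cells, which secrete antibody, have a high demand for ribosomes.

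Sequence just downstream of the start of 11 members carried that E-box, and these stretches are printed to show where it lies. Since many of these genes are known MYC targets, a high share of the E-box among them is no independent result. The letters are from the RefSeq promoter windows (GRCh38.p14), which run from 250 bases before to 50 bases after the start, and are written 5′ to 3′ on the strand of the gene with the E-box in capitals. The stretch of NOP10, whose E-box lies just before the start, is added because NOP10 was the single member that did not pass the test described below. In RRP9 and UTP20, which did pass it, an E-box also begins just before the start, and their stretches are not printed.
WDR43: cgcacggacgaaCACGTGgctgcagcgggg
RCL1: cctgttccaaacCACGTGgacgcgtctggg
FBL: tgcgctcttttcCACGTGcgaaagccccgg
PES1: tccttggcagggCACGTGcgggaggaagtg
MRTO4: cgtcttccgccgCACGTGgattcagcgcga
EXOSC5: caactgcagccgCACGTGggctcggcgcga
IMP4: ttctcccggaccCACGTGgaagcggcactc
NOP14: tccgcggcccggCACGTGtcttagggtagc
MYBBP1A: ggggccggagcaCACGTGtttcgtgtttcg
BYSL: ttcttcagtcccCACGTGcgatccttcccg
NOP2: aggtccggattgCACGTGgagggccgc
NOP10: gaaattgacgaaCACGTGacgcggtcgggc

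On the plus strand lie the stretches of WDR43 (chr2:28894658-28894687), RCL1 (chr9:4792936-4792965), MRTO4 (chr1:19251807-19251836), IMP4 (chr2:130342900-130342929) and BYSL (chr6:41921515-41921544). On the minus strand lie those of FBL (chr19:39846356-39846385), PES1 (chr22:30591880-30591909), EXOSC5 (chr19:41397328-41397357), NOP14 (chr4:2963374-2963403), MYBBP1A (chr17:4555340-4555369), NOP2 (chr12:6568242-6568268) and NOP10 (chr15:34343130-34343159). In the 11 the first base of the E-box was between base 4 of the transcript, in WDR43, and base 36, in NOP2. CACGTG reads the same on both strands, and no other motif was searched. It occurred in the 300-base window of 16 of the 36 members with an entry (44.4%), of 26 of 99 other ribosome biogenesis genes (26.3%), of 1062 of 10036 genes that passed the filter (10.6%) and of 2030 of all 27305 promoters (7.43%). A match that began after the start was present in 11 of the 36 members (30.6%), in 13 of the 99 other ribosome biogenesis genes (13.1%), in 1.22% of genes that passed the filter and in 0.912% of all promoters. A match wholly before the start was present in 16.7% of the 36 members, in 15.2% of the 99 other ribosome biogenesis genes, in 9.3% of genes that passed the filter and in 6.49% of all promoters. The members held 19 matches in all, 11 of them after the start, and IMP4, EXOSC5 and NOP10 held a second match farther upstream. NOP58, NOLC1, TCOF1, MPHOSPH10, RRP12, BOP1, DDX18, RRS1 and PUS1 had no entry. The median log2 fold change with CTBP2 was -1.0 over the 16 members with the E-box and -1.03 over the 20 without it in the window. These are matches of letters, with no measurement of binding, and the shares were not tested.

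**Figure D1:**
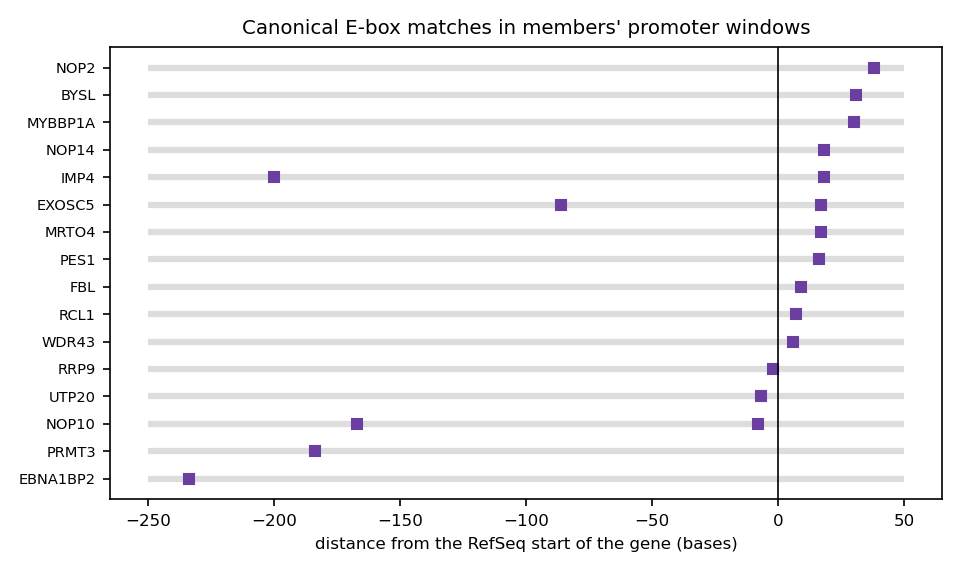
Positions of CACGTG in the promoter windows of the 16 members that hold it; the x axis gives the distance in bases from the RefSeq start, grey bars the window of 250 bases before to 50 bases after it, and squares the centres of the 19 matches. Of the 19 matches, 11 begin in the 50 bases after the start and 8 in the 250 bases before it.

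Expression of the vector and of line genes was checked before the members were compared. CTBP2 was at 1621 to 5884 FPKM in the 4 CTBP2 libraries and at 0.149 to 0.213 FPKM in the 4 empty vector libraries, so every library matched its vector label. The line genes did not match the line labels of 2 libraries. The CTBP2 library labelled MM.1S replicate 2 had FGFR3, a receptor tyrosine kinase expressed by NCI-H929, at 22.2 FPKM and CCND2, a cyclin expressed by MM.1S, at 0.0582 FPKM. The CTBP2 library labelled NCI-H929 replicate 2 had FGFR3 at 0.0399 FPKM and CCND2 at 60.7 FPKM. In what follows the line of each library is the one whose genes it expresses (FGFR3 or CCND2 above 10 FPKM), and results are also given with the line as labelled and with both of these libraries left out. All 6 plasma cell markers were expressed, at 20.5 to 975.5 FPKM with CTBP2 and at 12.6 to 1043 FPKM with empty vector. Of 9 markers of other cell types, 3 reached 1 FPKM in a CTBP2 library (CD3E, EPCAM and HBB) and 2 in an empty vector library (CD3E and HBB), and their sum was 7.20 to 54.6 FPKM with CTBP2 and 3.08 to 8.95 FPKM with empty vector. CD3E made up most of the highest sum, at 53.1 FPKM in the CTBP2 library labelled MM.1S replicate 2, where CD3D was at 0.214 FPKM. Of the plasma cell markers, IRF4 was at -1.17 on the log2 scale with CTBP2 (limma adjusted p = 0.00166) and below the range of the empty vector in each of the 4 libraries with CTBP2, and TNFRSF17 at -0.85 (limma adjusted p = 0.00578). CD38 went the other way, at 0.85 (limma adjusted p = 0.0574), with 1.37 in NCI-H929 (limma adjusted p = 0.0297) and 0.34 in MM.1S (limma adjusted p = 0.604). SDC1, XBP1 and PRDM1 were at 0.04, -0.19 and -0.33 over both lines and were not called. Of the markers of other cell types, CD3E was at 2.13 (limma adjusted p = 0.00925) and EPCAM at 0.58 (limma adjusted p = 0.0264). The part of these markers in the results was not tested.

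Nearly all of the nucleolar genes fell with CTBP2. Over both lines, 44 of the 45 members were lower in CTBP2 than in empty vector libraries and 0 were higher, by limma's moderated test on log2(FPKM + 1) with adjusted p under 0.05 over all 12583 genes. Of all genes tested, 16.7% were called lower and 17.4% higher in this comparison. The median log2 fold change was -1.01 over the members, with a range from -1.57 for LYAR to -0.44 for NOP10, against 0.03 over all genes. In 30 of the 45 members all 4 CTBP2 libraries lay below all 4 empty vector libraries, a pattern that 7.45% of all genes showed. Summed over the members, expression was 2097 to 2930 FPKM in the CTBP2 libraries and 3488 to 6908 FPKM in the empty vector libraries. This was 0.423 to 0.546% of all FPKM with CTBP2 and 0.638 to 1.06% with empty vector. In bulk RNA, fewer cells that express these genes and less of their RNA per cell cannot be told apart.

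The count moved with the assignment of lines. With the line as labelled, 26 of the 45 members were lower, against 1.81% of all genes. The 18 that lost the call were FBL, NPM1, IMP4, MPHOSPH10, NOC4L, RCL1, UTP20, BOP1, DDX18, GRWD1, LAS1L, NOP2, PPAN, WDR74, DDX21, EXOSC5, PPRC1 and PUS1, with adjusted p from 0.0521 for WDR74 to 0.482 for BOP1. With both CTBP2 replicate 2 libraries left out, 44 were lower, against 13% of all genes, with a median of -1.03. Scaling the libraries to equal totals without immunoglobulin genes and CTBP2 moved the median of all genes to 0.27, with 869 genes lower and 3802 higher in place of 2101 and 2186. Under it 40 members were lower, against 6.85% of all genes, and the median of the 45 was -0.99 relative to that of all genes. IMP4, UTP20, DDX18 and PUS1 lost their calls.

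In the values per library below, CTBP2 libraries are placed in the line whose genes they express, and the second CTBP2 value of each pair comes from the library whose line label disagrees.

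The genes of the box C/D proteins fell together. NOP56, a core protein of these RNPs, had 60.2 and 41.3 FPKM in the CTBP2 libraries that express NCI-H929 genes and 58.3 and 81.3 FPKM in those that express MM.1S genes, against 165.4 and 140.8 FPKM in NCI-H929 and 109.4 and 123.9 FPKM in MM.1S empty vector libraries. The groups did not overlap, with a log2 fold change for NOP56 of -1.17 and an SE of 0.21 (limma adjusted p = 0.00623). NOP58, its partner, had 58.1 and 49.8 FPKM with CTBP2 in NCI-H929 and 50.9 and 71.1 FPKM with CTBP2 in MM.1S, against 146.5 and 118.6 FPKM in NCI-H929 and 86.1 and 99.8 FPKM in MM.1S with empty vector. FBL, the methyltransferase of the complex, had 202.1 and 85.3 FPKM with CTBP2 in NCI-H929 and 120.7 and 170.0 FPKM with CTBP2 in MM.1S, against 326.3 and 242.1 FPKM in NCI-H929 and 241.9 and 308.9 FPKM in MM.1S with empty vector. FBL varied more than its partners between the CTBP2 libraries that express NCI-H929 genes, and all its CTBP2 values still lay below its empty vector values. The log2 fold changes were -0.95 for NOP58 (SE 0.18, limma adjusted p = 0.00705) and -1.01 for FBL (SE 0.26, limma adjusted p = 0.0189). FBL lost its call without replicate 1 of MM.1S with CTBP2, replicate 2 of MM.1S with empty vector or replicate 1 of NCI-H929 with empty vector, with an adjusted p of 0.0614 at most, and also with the line as labelled, at 0.0663.

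The genes of the 4 box H/ACA proteins all had negative estimates, and 3 were called lower. DKC1, the pseudouridine synthase, had 51.2 and 40.8 FPKM with CTBP2 in NCI-H929 and 35.3 and 43.7 FPKM with CTBP2 in MM.1S, against 138.0 and 104.1 FPKM in NCI-H929 and 57.8 and 63.6 FPKM in MM.1S with empty vector. GAR1, which helps substrate RNA enter and leave, had 13.0 and 11.4 FPKM with CTBP2 in NCI-H929 and 15.8 and 19.3 FPKM with CTBP2 in MM.1S, against 35.7 and 29.6 FPKM in NCI-H929 and 26.1 and 30.2 FPKM in MM.1S with empty vector. Both were apart in all 8 libraries, with log2 fold changes of -0.99 for DKC1 (SE 0.19, limma adjusted p = 0.0069) and -1.0 for GAR1 (SE 0.16, limma adjusted p = 0.00471). NHP2, a core RNA-binding protein, had 227.4 and 116.9 FPKM with CTBP2 in NCI-H929 and 117.6 and 162.2 FPKM with CTBP2 in MM.1S, against 464.1 and 324.6 FPKM in NCI-H929 and 197.4 and 255.4 FPKM in MM.1S with empty vector. Its groups overlapped across lines and were apart within each, and NHP2 was at -0.97 on the log2 scale (SE 0.25, limma adjusted p = 0.0179). Without replicate 1 of MM.1S with CTBP2, replicate 2 of MM.1S with empty vector or replicate 1 of NCI-H929 with empty vector, the adjusted p of NHP2 was 0.0512 to 0.056.

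NOP10, the smallest H/ACA protein, was the member not called over both lines. It had 173.3 and 150.8 FPKM with CTBP2 in NCI-H929 and 176.4 and 217.0 FPKM with CTBP2 in MM.1S, against 271.9 and 216.3 FPKM in NCI-H929 and 214.6 and 271.2 FPKM in MM.1S with empty vector. Its groups overlapped in MM.1S and were apart in NCI-H929. NOP10 was at -0.44 on the log2 scale (SE 0.16, limma adjusted p = 0.0545), and its adjusted p was 0.0382 without replicate 1 of MM.1S with empty vector and 0.0403 without the CTBP2 library labelled NCI-H929 replicate 2. With all 8 libraries it was 0.0469 under median-of-ratios scaling and 0.0427 without a variance trend. NOP10 is thus close to the threshold, and its fold was the smallest of the list.

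All 4 listed genes of scaffold and chaperone proteins of the nucleolus fell. NCL, nucleolin, had 252.4 and 202.3 FPKM with CTBP2 in NCI-H929 and 197.7 and 274.8 FPKM with CTBP2 in MM.1S, against 679.5 and 499.1 FPKM in NCI-H929 and 367.5 and 474.3 FPKM in MM.1S with empty vector. It averaged 231.8 ± 37.9 FPKM with CTBP2 and 505.1 ± 129.6 FPKM with empty vector (SD, n = 4 each), and was at -1.10 on the log2 scale (SE 0.20, limma adjusted p = 0.00623). NOLC1, which binds small nucleolar RNPs, had 38.2 and 31.6 FPKM with CTBP2 in NCI-H929 and 41.4 and 56.0 FPKM with CTBP2 in MM.1S, against 113.5 and 91.4 FPKM in NCI-H929 and 78.6 and 82.5 FPKM in MM.1S with empty vector. TCOF1, treacle, which links RNA polymerase I to processing, had 15.5 and 14.3 FPKM with CTBP2 in NCI-H929 and 13.7 and 19.7 FPKM with CTBP2 in MM.1S, against 45.2 and 30.4 FPKM in NCI-H929 and 29.3 and 36.3 FPKM in MM.1S with empty vector. Neither gene had a CTBP2 library that reached an empty vector library, and the log2 fold changes were -1.13 for NOLC1 (SE 0.19, limma adjusted p = 0.00512) and -1.10 for TCOF1 (SE 0.17, limma adjusted p = 0.00426). NPM1, nucleophosmin, was the most abundant member, with 942.7 and 704.0 FPKM with CTBP2 in NCI-H929 and 544.7 and 682.8 FPKM with CTBP2 in MM.1S, against 2299 and 1725 FPKM in NCI-H929 and 782.8 and 944.4 FPKM in MM.1S with empty vector. On the log2 scale NPM1 was at -0.89 (SE 0.23, limma adjusted p = 0.0195). NPM1 has near-identical processed copies in the genome, so its level is uncertain. Its adjusted p was 0.051 to 0.0605 without replicate 1 of MM.1S with CTBP2, replicate 2 of MM.1S with empty vector, or either NCI-H929 empty vector library.

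All 10 factors of the small subunit fell, with log2 fold changes from -1.11 for RRP9 to -0.51 for UTP20 and a median of -0.94. RRP9, a protein of the U3 RNP that directs early cuts, had 17.1 and 11.96 FPKM with CTBP2 in NCI-H929 and 14.1 and 24.9 FPKM with CTBP2 in MM.1S, against 42.2 and 34.2 FPKM in NCI-H929 and 27.6 and 45.1 FPKM in MM.1S with empty vector (SE 0.23, limma adjusted p = 0.00854). UTP20, a large scaffold of the small-subunit processome, had the lowest single value of any member, with 2.72 and 2.93 FPKM with CTBP2 in NCI-H929 and 6.69 and 7.89 FPKM with CTBP2 in MM.1S, against 5.10 and 5.14 FPKM in NCI-H929 and 10.1 and 8.89 FPKM in MM.1S with empty vector (SE 0.12, limma adjusted p = 0.0129). With equal totals UTP20 was at -0.26 (limma adjusted p = 0.17), and with the line as labelled its adjusted p was 0.458. Its groups were apart within each line, while the MM.1S libraries with CTBP2 lay above the NCI-H929 libraries with empty vector. The remaining members of this group were BYSL, RRP12, WDR43, NOC4L, NOP14, MPHOSPH10, IMP4 and RCL1, processome or late assembly factors, with log2 fold changes from -1.07 for BYSL to -0.63 for RCL1. IMP4 was near the threshold, at -0.66 on the log2 scale (SE 0.21, limma adjusted p = 0.0362). It lost its call without replicate 1 of MM.1S with CTBP2, replicate 2 of MM.1S with empty vector, the CTBP2 library labelled MM.1S replicate 2 or either NCI-H929 empty vector library, with an adjusted p of up to 0.103.

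PES1, BOP1 and WDR12, which form the PeBoW complex needed to process the RNA of the large subunit, all fell. PES1 had 49.8 and 37.5 FPKM with CTBP2 in NCI-H929 and 37.1 and 54.8 FPKM with CTBP2 in MM.1S, against 114.4 and 83.0 FPKM in NCI-H929 and 54.0 and 75.5 FPKM in MM.1S with empty vector. BOP1 had 12.9 and 8.46 FPKM with CTBP2 in NCI-H929 and 37.5 and 53.9 FPKM with CTBP2 in MM.1S, against 26.1 and 21.1 FPKM in NCI-H929 and 63.0 and 94.5 FPKM in MM.1S with empty vector. WDR12 had 13.7 and 10.5 FPKM with CTBP2 in NCI-H929 and 10.4 and 15.8 FPKM with CTBP2 in MM.1S, against 36.0 and 29.4 FPKM in NCI-H929 and 19.4 and 19.9 FPKM in MM.1S with empty vector. WDR12 was apart in all 8 libraries and BOP1 within each line, while PES1 was apart in NCI-H929 and overlapped narrowly in MM.1S. The log2 fold changes were -0.82 for PES1 (SE 0.21, limma adjusted p = 0.0185), -0.93 for BOP1 (SE 0.20, limma adjusted p = 0.00922) and -0.98 for WDR12 (SE 0.20, limma adjusted p = 0.00843). PES1 lost its call, with an adjusted p of 0.0525 to 0.058, without replicate 1 of MM.1S with CTBP2, replicate 2 of MM.1S with empty vector or replicate 1 of NCI-H929 with empty vector.

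All 13 further factors of the large subunit fell, with a median log2 fold change of -1.08. MRTO4, which holds the place of a stalk protein in the maturing subunit, had 17.3 and 12.8 FPKM with CTBP2 in NCI-H929 and 17.2 and 24.2 FPKM with CTBP2 in MM.1S, against 53.2 and 39.0 FPKM in NCI-H929 and 39.5 and 44.9 FPKM in MM.1S with empty vector. It averaged 17.8 ± 4.71 FPKM with CTBP2 and 44.1 ± 6.6 FPKM with empty vector (SD, n = 4 each), and its adjusted p by limma was the smallest of the list at 0.00344 (log2 fold change -1.28, SE 0.18). NOP16, an assembly factor, had 41.9 and 26.8 FPKM with CTBP2 in NCI-H929 and 31.3 and 47.7 FPKM with CTBP2 in MM.1S, against 133.1 and 102.7 FPKM in NCI-H929 and 57.7 and 73.1 FPKM in MM.1S with empty vector. EBNA1BP2, also an assembly factor, had 40.9 and 31.8 FPKM with CTBP2 in NCI-H929 and 36.6 and 49.1 FPKM with CTBP2 in MM.1S, against 123.2 and 86.0 FPKM in NCI-H929 and 65.2 and 76.6 FPKM in MM.1S with empty vector. Neither overlapped between the vectors, and the log2 fold changes were -1.25 for NOP16 (SE 0.26, limma adjusted p = 0.00845) and -1.11 for EBNA1BP2 (SE 0.20, limma adjusted p = 0.00643).

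RRS1 and PPAN, known for early steps of the large subunit, were expressed more in NCI-H929, and their vector groups overlapped across lines. RRS1 had 30.9 and 22.1 FPKM with CTBP2 in NCI-H929 and 15.8 and 23.8 FPKM with CTBP2 in MM.1S, against 78.5 and 61.1 FPKM in NCI-H929 and 30.4 and 40.6 FPKM in MM.1S with empty vector. PPAN had 39.0 and 20.3 FPKM with CTBP2 in NCI-H929 and 18.3 and 21.6 FPKM with CTBP2 in MM.1S, against 107.0 and 69.1 FPKM in NCI-H929 and 26.9 and 35.9 FPKM in MM.1S with empty vector. Within each line both genes were apart, with log2 fold changes of -1.10 for RRS1 (SE 0.20, limma adjusted p = 0.00611) and -1.10 for PPAN (SE 0.27, limma adjusted p = 0.015). PPAN overlaps the readthrough gene PPAN-P2RY11, so reads of the 2 cannot be fully separated, and its adjusted p was 0.0816 with the line as labelled. The other 8 factors, among them the GTPase GNL3, the histone chaperone GRWD1, the RNA methyltransferase NOP2 and the nuclease LAS1L, had log2 fold changes from -1.09 for GNL3 to -0.64 for the helicase DDX18. PA2G4, NIP7 and WDR74 were at -1.08, -1.03 and -0.99.

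The 8 remaining members, regulators and RNA enzymes, all fell. LYAR, a zinc finger protein of the nucleolus, fell the most of the list, with 10.4 and 6.90 FPKM with CTBP2 in NCI-H929 and 11.1 and 19.0 FPKM with CTBP2 in MM.1S, against 50.1 and 30.9 FPKM in NCI-H929 and 26.8 and 36.7 FPKM in MM.1S with empty vector. IFRD2, which binds inactive ribosomes, had 25.3 and 15.6 FPKM with CTBP2 in NCI-H929 and 24.1 and 40 FPKM with CTBP2 in MM.1S, against 78.4 and 62.1 FPKM in NCI-H929 and 52.2 and 70.2 FPKM in MM.1S with empty vector. No CTBP2 library of either gene reached an empty vector library, and the log2 fold changes were -1.57 for LYAR (SE 0.28, limma adjusted p = 0.00574) and -1.35 for IFRD2 (SE 0.25, limma adjusted p = 0.00623). The exosome subunit EXOSC5, the helicase DDX21, MYBBP1A, the arginine methyltransferase PRMT3, the coactivator PPRC1 and the pseudouridine synthase PUS1 had log2 fold changes from -1.08 for EXOSC5 to -0.61 for PUS1. PUS1 was near the threshold (SE 0.20, limma adjusted p = 0.041) and lost its call in 6 of the 8 fits that left out 1 library, with an adjusted p of up to 0.117. Only the fits without replicate 1 of MM.1S with empty vector and without the CTBP2 library labelled NCI-H929 replicate 2 kept it.

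**Figure D2:**
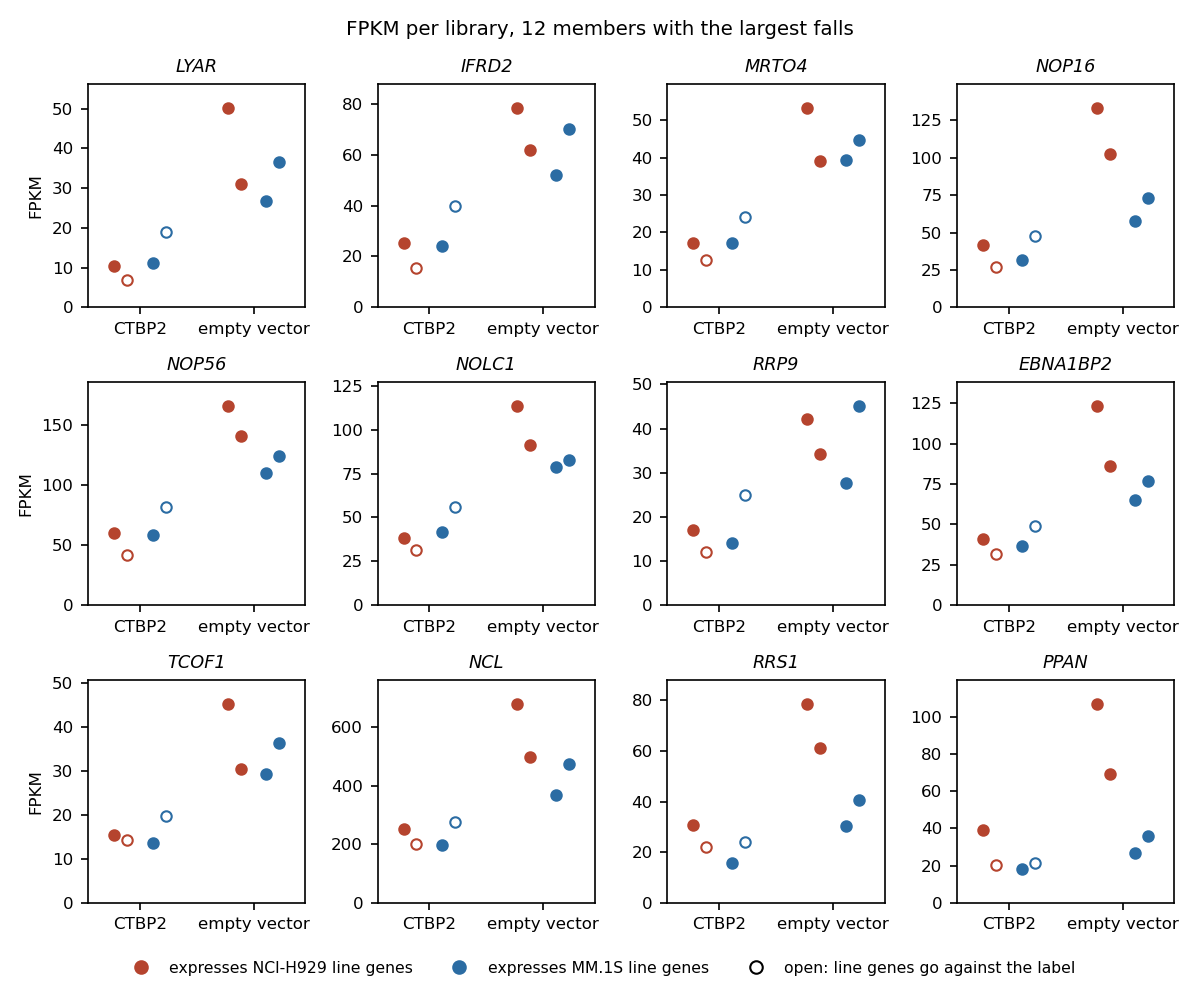
FPKM (linear y axis from 0) in each of the 8 libraries for the 12 called members with the largest log2 fold changes, CTBP2 left and empty vector right; red points express NCI-H929 genes, blue points MM.1S genes, and open points are the 2 libraries whose line genes go against their label. LYAR is at 6.90 to 19.0 FPKM with CTBP2 and at 26.8 to 50.1 FPKM with empty vector, while RRS1 and PPAN overlap between the vectors across lines.

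Whether the fall was alike in the lines was asked because MYC fell more in NCI-H929. MYC had 27.8 and 26.8 FPKM with CTBP2 in NCI-H929, against 114.6 and 92.9 FPKM in NCI-H929 with empty vector, and 133.9 and 138.7 FPKM with CTBP2 in MM.1S, against 189.9 and 188.0 FPKM in MM.1S with empty vector. The log2 fold change of MYC was -1.88 in NCI-H929 (SE 0.16) and -0.47 in MM.1S (SE 0.16). Their difference was -1.41 (SE 0.23). With the line as labelled it was 0.92, in a fit whose CTBP2 groups each mix libraries that express different lines' genes. MYC prompted the comparison of the lines, so its values are a description with no test. CTBP2 itself was also at a higher level in NCI-H929, at 5884 and 3427 FPKM, against 2145 and 1621 FPKM in MM.1S, so the line and the amount of CTBP2 cannot be told apart.

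In libraries that express NCI-H929 genes, 43 of the 45 members were lower with CTBP2 and 0 were higher by limma at adjusted p under 0.05, against 14.6% of all genes called lower and 18.3% called higher. The median log2 fold change was -1.31, and the range was from -2.09 for LYAR to -0.58 for NOP10. FBL, with a log2 fold change of -1.09 and an adjusted p of 0.0632, and NOP10, with an adjusted p of 0.0746, were not called. In all 45 members both CTBP2 libraries lay below both empty vector libraries, against 31% of all genes. Over all genes 1840 were lower and 2298 higher, against 636 and 3914 with equal totals, where 38 members were lower, and 2415 and 1926 with median-of-ratios scaling, where 44 were. The count of members was 19 without replicate 1 of NCI-H929 with empty vector, against 2.35% of all genes, and 29 without both CTBP2 replicate 2 libraries, against 6.52% of all genes in the fit of those 6 libraries. With the line as labelled, 0 of the 45 passed limma's test, against 0.00795% of all genes, and 36 were lower at an unadjusted p under 0.05, against 8.17% of all genes.

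In libraries that express MM.1S genes, 3 of the 45 were lower and 0 higher by limma, against 1.8% of all genes called lower and 3.67% called higher. These were EXOSC5 (log2 fold change -1.10, limma adjusted p = 0.0489), MRTO4 (-1.01, limma adjusted p = 0.0459) and GNL3 (-0.80, limma adjusted p = 0.0472). All 45 estimates were below 0, with a median of -0.67 and a range from -1.10 to -0.27, and 35 had an unadjusted p under 0.05, against 13.2% of all genes lower at that threshold. In 40 of the 45, both CTBP2 libraries lay below both empty vector libraries, against 31.3% of all genes. Over all genes 226 were lower and 462 higher, against 97 and 587 with equal totals, where 1 member was lower. The count of calls moved with single libraries: it was 7 without the CTBP2 library labelled MM.1S replicate 2 (4.74% of all genes) and 7 without replicate 1 of NCI-H929 with CTBP2 (4.78% of all genes). It was 1 without the CTBP2 library labelled NCI-H929 replicate 2 (0.715% of all genes) and 0 without any other of the 8 (0.0238 to 0.596% of all genes). It was 20 without both CTBP2 replicate 2 libraries, against 5.56% of all genes, and 0 with the line as labelled, against 0.0159% of all genes, where 36 were lower at an unadjusted p under 0.05, against 11.7% of all genes.

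**Figure D3:**
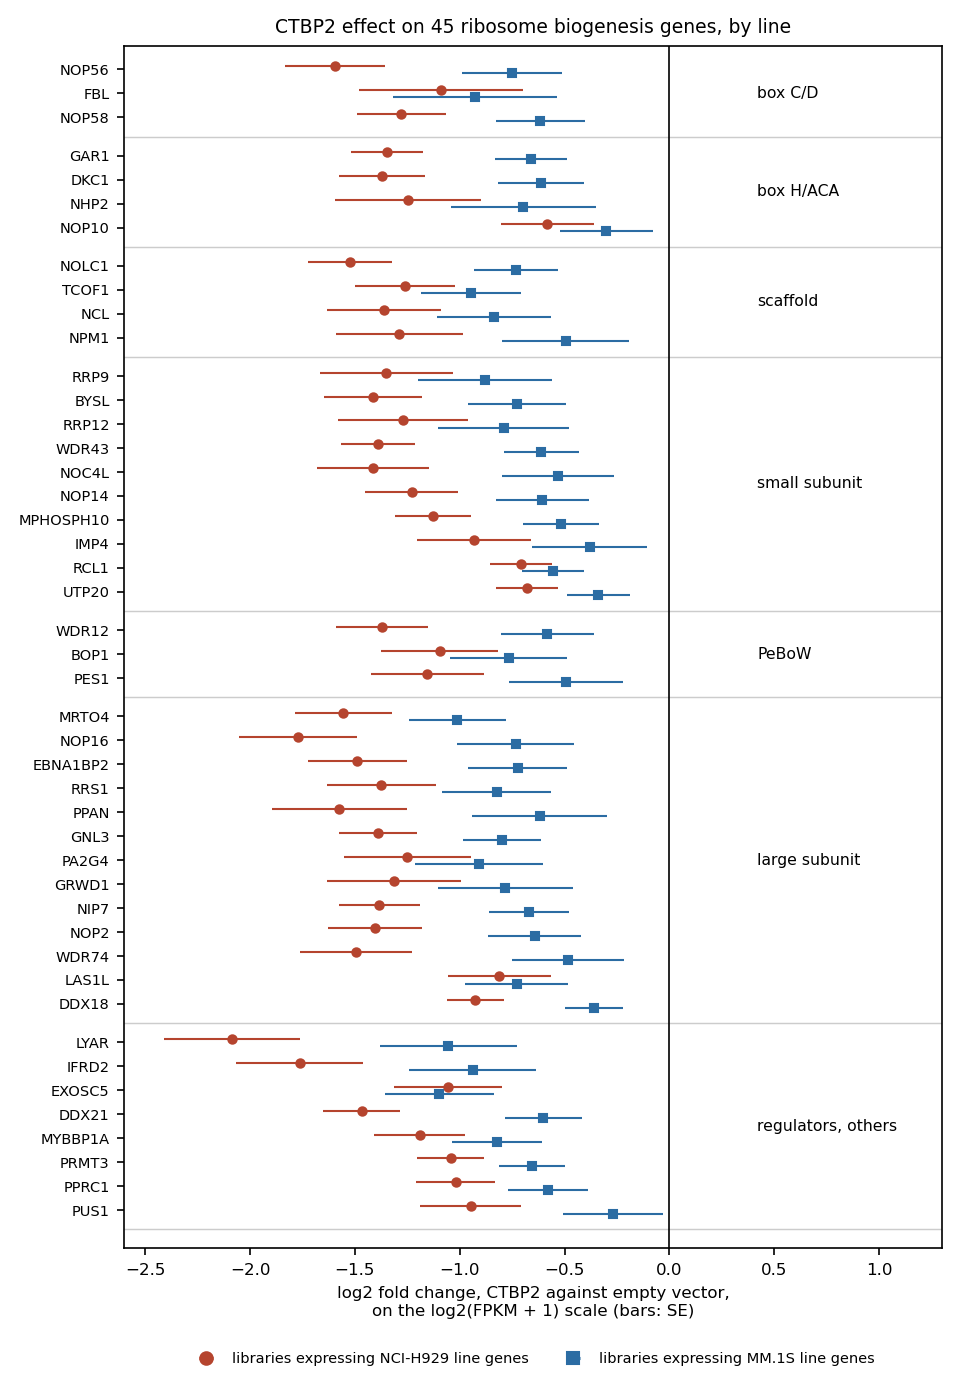
Log2 fold change of each of the 45 members, CTBP2 against empty vector on the log2(FPKM + 1) scale, in libraries that express NCI-H929 genes (red circles) and MM.1S genes (blue squares), with bars of 1 SE and members grouped by role. All points lie left of 0, with medians of -1.31 in NCI-H929 and -0.67 in MM.1S.

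The estimate was more negative in NCI-H929 than in MM.1S for 44 of the 45 members, EXOSC5 being the exception at a difference of 0.04. No single member passed the test of that difference: limma called 0 of 45 at adjusted p under 0.05, with 14 at an unadjusted p under 0.05, all lower, against 6.02% of all genes lower at that threshold, while 0.334% of all genes were called lower and 0.922% higher. Quantile normalization gave 54 genes lower and 72 higher in place of 42 and 116, with 0 members. The median difference, NCI-H929 minus MM.1S, was -0.61 over the members and 0.02 over all genes. The smallest p belonged to DDX21, a helicase that senses the state of both RNA polymerases I and II. DDX21 had 17.3 and 14.9 FPKM with CTBP2 in NCI-H929, against 52.9 and 40.3 FPKM with empty vector, and 29.9 and 35.7 FPKM with CTBP2 in MM.1S, against 52.4 and 47.7 FPKM with empty vector. Its difference was -0.87 (SE 0.26, limma adjusted p = 0.157). WDR43, which couples transcription to processing, had 15.04 and 12.8 FPKM with CTBP2 in NCI-H929, against 42.6 and 33.8 FPKM with empty vector, and 14.1 and 17.6 FPKM with CTBP2 in MM.1S, against 24.4 and 24.9 FPKM with empty vector. DDX18 had 22.7 and 23.9 FPKM with CTBP2 in NCI-H929, against 46.9 and 43.5 FPKM with empty vector, and 27.1 and 29.5 FPKM with CTBP2 in MM.1S, against 37.0 and 36.2 FPKM with empty vector. In each of the 3 genes the vectors were apart within each line. The differences were -0.78 for WDR43 (SE 0.25, limma adjusted p = 0.188), -0.57 for the helicase DDX18 (limma adjusted p = 0.215) and -0.69 for GAR1 (limma adjusted p = 0.227).

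That lean moved with single libraries. The median difference was -0.83 without replicate 1 of MM.1S with CTBP2 and -0.42 without the CTBP2 library labelled NCI-H929 replicate 2, the extremes of these fits. Without replicate 1 of either line with empty vector it was -0.46. The lean also moved with the pair of CTBP2 replicate 2 libraries. Without both of them the median difference was -0.26, 34 of the 45 members were more negative in NCI-H929 and 1 had an unadjusted p under 0.05, against 4.94% of all genes lower at that threshold. With the line as labelled the median was -0.04 and 23 of the 45 were more negative in NCI-H929. In that fit each CTBP2 group holds 1 library that expresses the genes of each line. It therefore cannot show a difference between the lines whose genes are expressed. Taken library by library, the median difference of the members from the empty vector mean of the same line was -1.14 in replicate 1 of NCI-H929 with CTBP2 and -1.51 in the CTBP2 library labelled MM.1S replicate 2, both of which express NCI-H929 genes. It was -0.93 in replicate 1 of MM.1S with CTBP2 and -0.49 in the CTBP2 library labelled NCI-H929 replicate 2, both of which express MM.1S genes. Measured this way, the gap between the 2 libraries of a line was wider than the gap between the nearest libraries of different lines. Libraries were not paired by number here, although same-numbered libraries of a line deviated together (correlations 0.435 and 0.452). By number, the members' summed FPKM was 2103 with CTBP2 against 3488 with empty vector and 2822 against 4283 in MM.1S. In NCI-H929 it was 2930 against 6908 and 2097 against 5211. MYC did not follow the spread of the members' medians, with differences of -1.85 and -1.91 in NCI-H929 and -0.49 and -0.44 in MM.1S. Across the 45 members the log2 fold changes in NCI-H929 and MM.1S had a Pearson r of 0.517 and a Spearman rho of 0.366, as a description over genes that share their libraries.

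**Figure D4:**
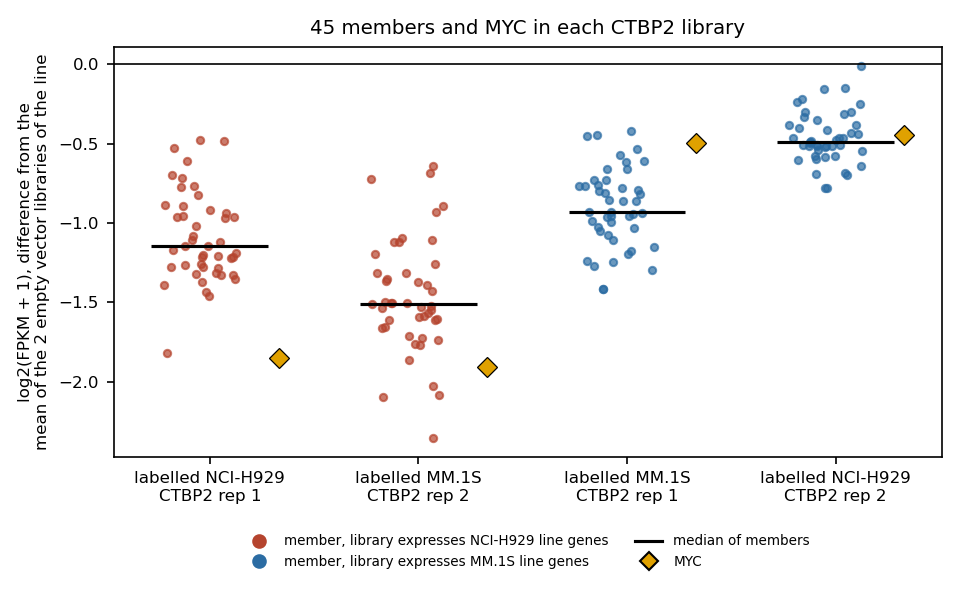
Difference of each of the 45 members (circles) and of MYC (diamond) from the empty vector mean of the same line, in log2(FPKM + 1), in each CTBP2 library, with bars at the members' medians. The medians are -1.14 and -1.51 in the libraries that express NCI-H929 genes (red) and -0.93 and -0.49 in those that express MM.1S genes (blue), while MYC lies near -1.9 in the first pair and near -0.5 in the second.

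Empty vector libraries were compared to see whether the lines began at the same levels. NCI-H929 was higher than MM.1S in 12 members and lower in 4 by limma, against 22.1% of all genes called higher and 28.7% called lower. The median difference was 0.34 over the members and -0.10 over all genes. NOC4L, a small-subunit factor, had 49.1 and 33.7 FPKM in NCI-H929, against 8.26 and 12.3 FPKM in MM.1S, which is 4.03 times the MM.1S mean (log2 difference 1.91, SE 0.27, limma adjusted p = 0.000609). GRWD1 had 166.5 and 108.1 FPKM in NCI-H929, against 32.0 and 41.4 FPKM in MM.1S, a ratio of 3.74 (log2 difference 1.85, SE 0.32, limma adjusted p = 0.00184). PPAN, NPM1, DKC1, RRS1, PUS1, NOP16, EXOSC5, WDR12, WDR43 and MPHOSPH10 were also higher, with log2 differences from 1.44 for PPAN to 0.52 for MPHOSPH10. BOP1 went the other way, with 26.1 and 21.1 FPKM in NCI-H929, against 63.0 and 94.5 FPKM in MM.1S, a ratio of 0.300 (log2 difference -1.67, SE 0.28, limma adjusted p = 0.00146). UTP20, NOP2 and RCL1 were lower too, at -0.77, -0.85 and -0.52. BOP1 thus differed from its partners PES1, at 0.60, and WDR12, at 0.70. Over all genes 3617 were lower and 2778 higher, against 4190 and 1952 with equal totals, where 4 members were lower and 8 higher. The count of higher members was 3 without replicate 1 of MM.1S with empty vector or without replicate 1 of NCI-H929 with empty vector, against 15.8% and 15.5% of all genes. The count of lower members was 2 without replicate 2 of MM.1S or of NCI-H929 with empty vector, against 22.1% and 21.4% of all genes.

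**Figure D5:**
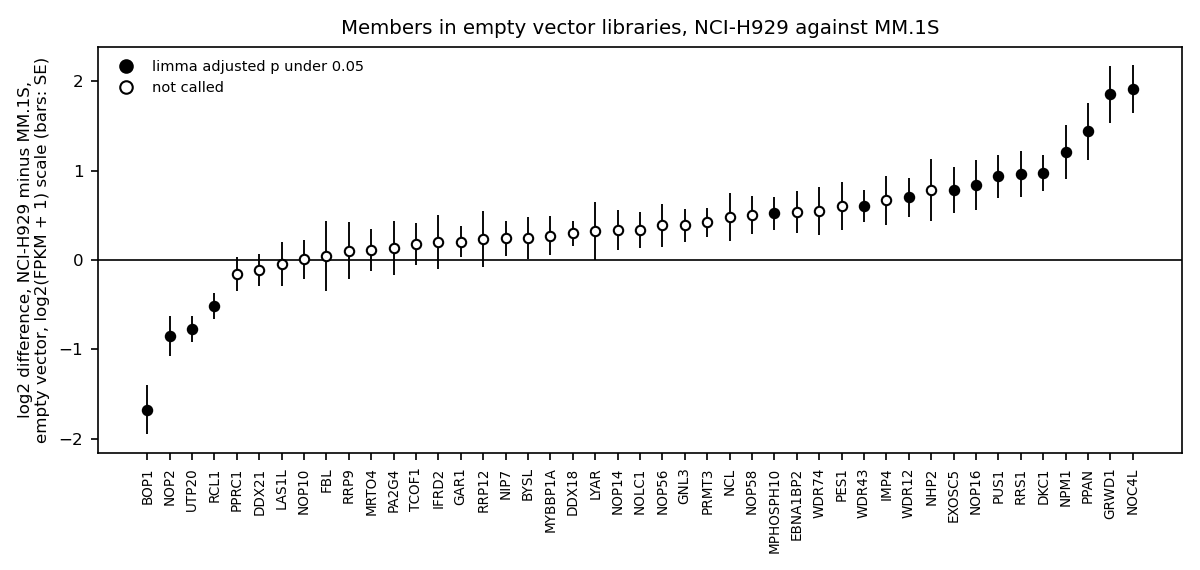
Log2 difference, NCI-H929 minus MM.1S, of each of the 45 members in empty vector libraries on the log2(FPKM + 1) scale, with bars of 1 SE; filled points passed limma's test at adjusted p under 0.05. The 4 filled points on the left run from BOP1 at -1.67 to RCL1 at -0.52, and the 12 on the right reach 1.91 for NOC4L.

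Ribosome biogenesis genes outside the list moved the same way. Of 111 such genes, 86 were lower with CTBP2 over both lines and 0 were higher by limma, against 16.7% of all genes called lower, with a median log2 fold change of -0.65. By kind, 37 of 43 small-subunit factors, 32 of 43 large-subunit factors, 8 of 11 exosome genes and 9 of 14 genes of RNA polymerase I and its factors were lower. The largest falls were those of BRIX1, a large-subunit factor, which averaged 24.3 ± 3.77 FPKM with CTBP2 and 61.2 ± 12.1 FPKM with empty vector (SD, n = 4 each; log2 fold change -1.28, SE 0.16, limma adjusted p = 0.00272), and of EMG1, a small-subunit methyltransferase, at -1.17. DDX10, NLE1, RPF2 and EXOSC2 followed at -1.12, -1.11, -1.09 and -1.07. Among the polymerase I genes, the subunit POLR1B was at -0.81 (limma adjusted p = 0.00611), while the factor UBTF was at -0.06 (limma adjusted p = 0.736), with 39.6 ± 6.82 FPKM with CTBP2 and 41.1 ± 4.70 FPKM with empty vector (SD, n = 4 each). With the line as labelled 11 of the 111 were lower, against 1.81% of all genes, and with equal totals 48 were, against 6.85% of all genes.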

How the data were processed

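RNA of 8 libraries, prepared with a TruSeq kit per the labels' protocols, was analysed as the FPKM values deposited by the authors for 25906 genes. Tools named, per the submitters' processing notes, were HTSeq 0.9.1, STAR 2.6.0b-1, DESeq2 2.11.40.2, Trimmomatic 0.36.5 and FastQC 0.11.7, with the build GRCh37 (hg19) and no roles. Not given in the sources used here were the tool behind the FPKM, its annotation and the use of strand. Since FPKM divides by library total, a few very abundant genes can shift the rest. Steps in the low FPKM values gave an estimate of 16150000 to 21300000 fragments per library. Of the low values, 51.5 to 58.5% came to a whole number of fragments at a tolerance of 0.1, so no counts were recovered. By chance 20.0% would at a total fixed in advance, whereas the total used was the best of those scanned.

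The 12583 genes that reached 1 FPKM in 2 or more libraries were analysed as log2(FPKM + 1), which understates changes of low genes. limma 3.58.1 in R 4.3.3 was used (lmFit, eBayes with trend), calling genes at an adjusted p under 0.05 (Benjamini-Hochberg, over all these genes). Only the vector comparison over both lines was tested on simulated data, with independent noise per library, and the other comparisons were not. Both lines together used terms for line and vector; other comparisons used 1 mean per line and vector. Vector was taken from the labels and line from FGFR3 and CCND2 above 10 FPKM. Replicates are called biological duplicates, and p-values measure only the spread between these libraries. The members, lists and tests were chosen with earlier results of these data known. Values are given per library for the 12 called members with the largest fold, members not called, box C/D, H/ACA and PeBoW genes, and leading genes of the line comparisons, and for up to 6 other pathway genes a summary. Alternatives changed the line assignment, pseudocount, filter, scaling, variance trend, replicate block and single libraries. Promoter letters came from RefSeq (GRCh38.p14). Protein sequences were not used here.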

Additional observations from a re-analysis of the deposited data

Results flagged for a closer look

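The log2 fold change of MYC with CTBP2 differed between the lines by -1.41 (NCI-H929 minus MM.1S, SE 0.23). This difference was known from earlier results of these data and prompted the comparison of the lines, so it is a description and no independent result. It was -1.36 without both CTBP2 replicate 2 libraries. With the line as labelled it was 0.92, in a fit whose CTBP2 groups each mix libraries that express different lines' genes.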

How the results depend on the processing

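Over both lines, the count of lower members was 44, with 26 under the line as labelled, 38 to 45 with 1 library left out, and within 1.5 times of 44 under the other alternatives run. The members' median stayed negative in each, from -1.17 to -0.72. Of the other pathway genes 86 were lower, with 48 under equal totals, 11 under the line as labelled and 61 to 89 with 1 library left out. In MM.1S the 3 calls became 0 under the line as labelled, pseudocount 0.1, no filter, a filter of 5 FPKM, median-of-ratios scaling and the replicate block, 1 under quantile normalization, equal totals and no variance trend, 20 without both CTBP2 replicate 2 libraries, and 0 to 7 with 1 library left out. In NCI-H929 the 43 became 0 under the line as labelled and 19 to 44 with 1 library left out. At baseline the 4 lower and 12 higher became 0 and 0 under the line as labelled, and 2 to 4 and 3 to 15 with 1 library left out. The line difference called 0 members in each setting. Under the line as labelled 22 of the 45 members had a positive difference between lines, and among the genes followed by name it turned positive for DDX21 (0.34), GAR1 (0.0179) and MYC (0.92). In that fit each CTBP2 group holds 1 library that expresses the genes of each line, so it cannot compare the responses of the expressed lines. The cause of the mismatch with the labels was not tested. With the replicate block 42 members were lower over both lines (IMP4 and PUS1 lost their calls). Same-numbered libraries deviated together within a line (correlations 0.435 and 0.452) and not across lines (0.03 to -0.28). The labels tie the numbers to no shared day. The block was 1 term shared by both lines, so a pairing within each line was not modelled. FPKM hold no counts, so the precision of low members such as UTP20 could not be set from depth.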
